A study of Mus musculus with 30 samples.

Results

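The 8 genes described here were chosen by name as genes of the fat cell: *Adipoq*, *Plin1*, *Cidec*, *Fabp4*, *Cfd*, *Lep*, *Retn* and *Pparg*. They are 8 of the 55416 gene IDs counted in bulk RNA sequencing of mouse fracture callus, and each of the 8 had reads in 30 of 30 libraries. In P-Apex1KO callus all 8 lay below WT at 3-dpf (days post fracture) without passing the test, 5 were higher at 6-dpf, 5 were higher at 10-dpf, and none passed at 14-dpf. The 6-dpf calls rested on the sex term of the model, and 0 remained without it, while calls over all genes were 2687 beside 2212 with it. With the replicate number as a block in its place 0 remained as well, and calls over all genes fell to 677. The count of 10-dpf calls was the same without the sex term but fell to 0 when either of 2 mice was left out. Calls over all genes then fell as well, from 1221 to 113 or 42.

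A white fat cell stores triglyceride in a large lipid droplet and secretes hormones that report on the store. *Pparg* encodes the nuclear receptor that starts and maintains the fat cell programme, together with the C/EBP factors. In bone, fat cells lie in the marrow and in the tissue around the bone, and they arise from stromal progenitors that can also give bone and cartilage.

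P-Apex1KO mice are Prrx1-Cre;Apex1 C/C, in which a transgenic Cre under *Prrx1* control removes *Apex1* from the limb mesenchyme of the embryo, so blood, vessel and muscle fibre lineages keep the gene. The WT littermates were Prrx1-Cre+/-;Apex1 C/+, Apex1 C/C or Apex1 C/+, so some WT mice carried Cre and 1 floxed allele, and the labels do not tell which. All mice, 7 to 12 weeks old, had a non-stabilized closed fracture of the tibia, and the tissue around the break was taken whole. There were 4 WT and 4 P-Apex1KO mice at 3-dpf, 5 and 3 at 6-dpf, 4 and 3 at 10-dpf, and 4 and 3 at 14-dpf, 14 females and 16 males in all. Whether the fat cells of these calluses had themselves lost *Apex1* was not measured.

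Counts on genes ran from 18334389 to 43111491 per library. *Apex1* itself lay between 15.1 and 15.8 CPM (counts scaled to a common library size by TMM) in P-Apex1KO at 6-dpf and between 20.7 and 28.9 CPM in WT, a log2 fold change of −0.67 ± 0.11 (SE; edgeR quasi-likelihood test, Benjamini-Hochberg adjusted p = 0.0071). It was −0.65 at 10-dpf (edgeR adjusted p = 0.0278), −0.15 at 3-dpf (edgeR adjusted p = 0.927) and −0.29 at 14-dpf (edgeR adjusted p = 0.367). At 14-dpf the 3 P-Apex1KO mice were female and only 1 WT mouse was, and the sex-adjusted difference at that time therefore depends on a single WT female.

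Fat cell markers outside the 8 genes were measured too. *Plin4*, a coat protein of the lipid droplet, lay between 5.57 and 70.2 CPM, *Lipe*, the hormone-sensitive lipase, between 13.2 and 44.9 CPM and *Lgals12*, a lipid droplet galectin, between 0.162 and 5.00 CPM. *Ucp1*, which defines brown fat, did not exceed 0.140 CPM in any library. *Krt5*, which marks the basal layer of skin, did not exceed 0.253 CPM in any library.

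The stretches of 250 bases just before the start of the canonical transcript in GENCODE are printed for *Adipoq* and *Cfd*, a pair that passed the test at both 6- and 10-dpf, to let promoters of genes that moved together be read side by side. They are given 5′ to 3′ on the strand of the gene, from GRCm39. Capitals mark AGGTCA, the half-site bound by PPAR receptors, on either strand, and TTNNGNAA, a loose C/EBP core, on either strand. The *Adipoq* stretch is chr16:22965036-22965285 on the plus strand, inside the annotated gene, which begins at 22964106 with another transcript. The *Cfd* stretch is chr10:79726418-79726667 on the plus strand.
Adipoq: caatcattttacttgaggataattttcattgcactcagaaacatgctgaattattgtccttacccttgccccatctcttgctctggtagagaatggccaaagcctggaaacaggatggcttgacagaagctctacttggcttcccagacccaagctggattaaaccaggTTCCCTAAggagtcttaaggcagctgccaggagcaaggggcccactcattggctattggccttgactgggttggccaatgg
Cfd: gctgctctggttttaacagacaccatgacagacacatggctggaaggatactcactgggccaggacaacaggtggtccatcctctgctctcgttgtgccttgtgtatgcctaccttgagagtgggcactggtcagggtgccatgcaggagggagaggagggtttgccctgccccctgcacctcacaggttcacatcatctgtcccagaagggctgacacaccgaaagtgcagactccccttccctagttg

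The C/EBP core began 81 bases before that start of *Adipoq*, and the stretch of *Cfd* held neither motif. Among all 8 genes, 5 held the C/EBP core, beside 37% of 21627 protein-coding promoters of the same length, and 1 held AGGTCA, beside 13.1%. *Plin1* held the C/EBP core at 2 places. TATAAA on the gene strand was found in none of the 8 and in 8.06% of all promoters. These are matches of letters, not sites shown to be bound.

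Per kilobase of exon pooled over all annotated transcripts, *Cfd*, *Adipoq* and *Fabp4* stood highest, and *Lep* and *Retn* lowest. For *Fabp4* the pooled exons cover the whole gene, 4953 bases, introns included, so its value per kb is too low. Pooled lengths can exceed those of the spliced transcript, so the order between genes is approximate. In WT callus at 3-dpf *Cfd*, which encodes the protease adipsin, had 97.2 ± 30.05 CPM per kb (SD, n = 4), *Adipoq* 20.6 ± 3.4 and *Fabp4* 16.1 ± 3.5. *Cidec* and *Plin1* followed at 4.91 ± 2.402 and 4.56 ± 1.48 CPM per kb. *Pparg* had 1.69 ± 0.04, *Lep* 1.48 ± 0.69 and *Retn* 1.38 ± 0.63 CPM per kb. *Cidec* and *Plin1*, and the last 3 genes among themselves, did not differ beyond their spread.

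**Figure D1:**
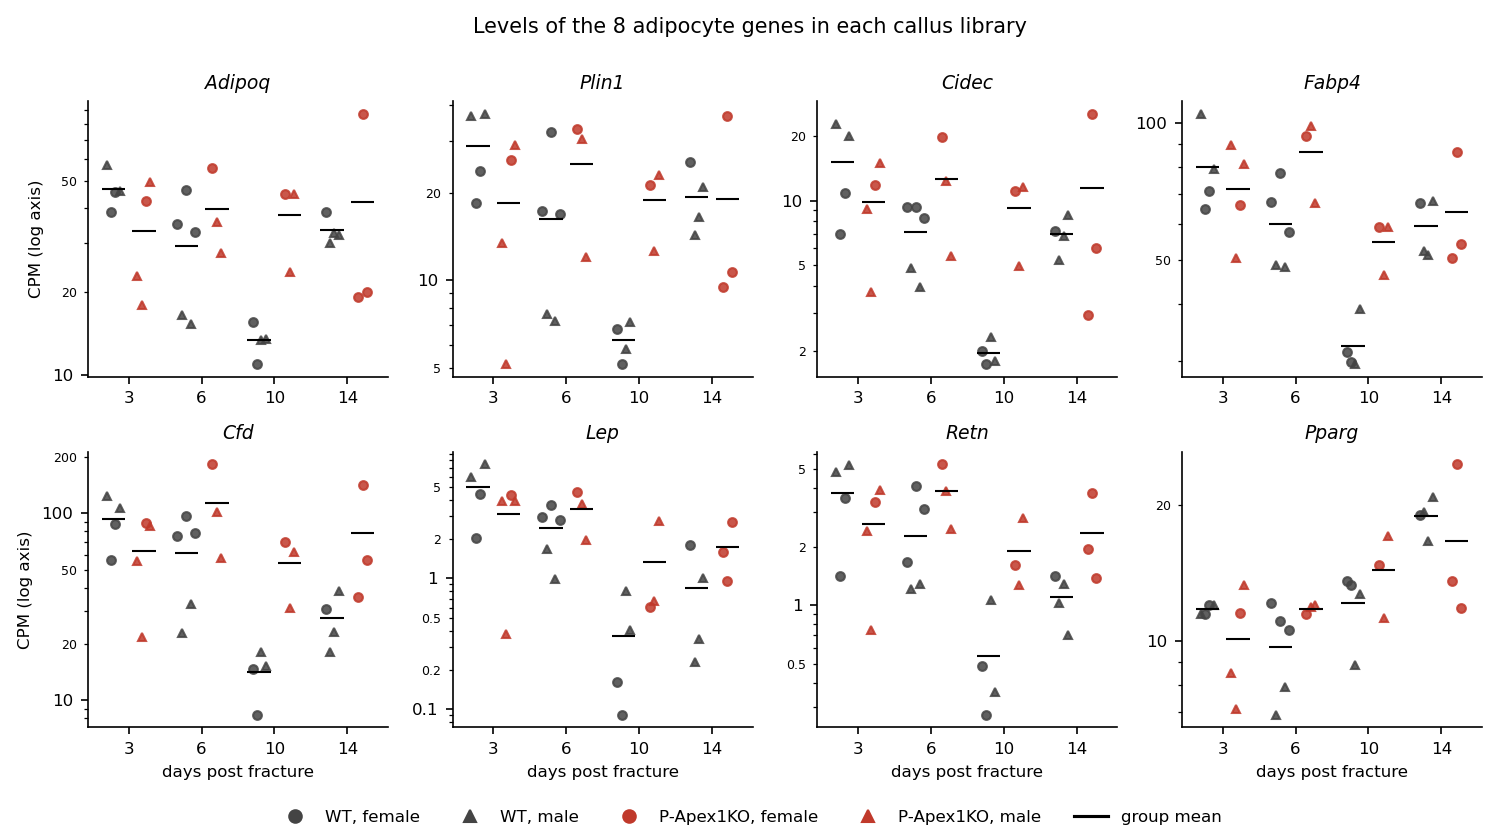
Level of each gene in every library (CPM, log axis) at 3-, 6-, 10- and 14-dpf, WT in grey and P-Apex1KO in red, females as circles and males as triangles, with the group mean as a bar. The WT mean was lowest at 10-dpf for 7 of the genes, *Pparg* being the exception, and 1 P-Apex1KO mouse at 14-dpf stood far above the other 2 for *Adipoq* (87.2 against 19.1 and 19.9 CPM). Sample names follow another scheme from 10-dpf on.

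At 3-dpf, the end of the inflammatory phase, no gene of the 8 passed the test. *Adipoq*, the hormone adiponectin, was at 57.2, 38.5, 45.7 and 46.1 CPM in the 4 WT mice and at 22.7, 17.8, 42.4 and 49.4 CPM in the 4 P-Apex1KO mice. P-Apex1KO replicates 1 and 2 lay below every WT mouse, and replicates 3 and 4 lay among them. The log2 fold change of *Adipoq* was −0.50 ± 0.34 (SE; edgeR adjusted p = 0.876).

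P-Apex1KO replicate 2 was the lowest of the 8 mice at 3-dpf for each of the 8 genes. *Plin1*, the perilipin that coats the droplet, was at 13.4 and 5.15 CPM in P-Apex1KO replicates 1 and 2 and at 25.8 and 29.2 CPM in replicates 3 and 4, beside 18.4 to 37.3 CPM in WT. *Lep*, which encodes leptin, was at 0.374 CPM (12 counts) in P-Apex1KO replicate 2 and at 3.88 to 4.36 CPM in the other 3, beside 2.04 to 7.46 CPM in WT. Log2 fold changes of the 8 genes ran from −0.67 to −0.20, with a median of −0.56, and their edgeR adjusted p-values from 0.876 to 0.909. Over all 19866 genes tested at 3-dpf the share called was 0%, so the test set no gene apart at this time point.

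At 6-dpf, in the early reparative phase, *Adipoq*, *Cidec*, *Fabp4*, *Cfd* and *Retn* were higher in P-Apex1KO callus, 5 of 8 beside 5.31% of 20260 genes called higher. *Adipoq* was at 55.7, 35.4 and 27.5 CPM in the P-Apex1KO mice and at 35.0, 16.5, 46.5, 15.3 and 32.8 CPM in the WT mice. The groups overlapped, and the low WT values, 16.5 and 15.3 CPM, were those of the 2 males. With sex in the model the log2 fold change was 0.82 ± 0.16 (SE; edgeR adjusted p = 0.0120), a 1.77-fold difference. In bulk tissue more cells of a type and more RNA per cell cannot be told apart.

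*Cfd* showed the largest change of the 8 at 6-dpf. It was at 183, 102 and 57.6 CPM in P-Apex1KO and at 75.5, 23.0, 97.1, 32.6 and 78.8 CPM in WT. The P-Apex1KO female was above every WT mouse, as was P-Apex1KO male replicate 2, and male replicate 3 was above the 2 WT males and below the WT females. Its log2 fold change was 1.38 ± 0.20 (SE; edgeR adjusted p = 0.00467).

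Of the lipid droplet genes, *Cidec*, which fuses small droplets into large ones, was at 19.8, 12.4 and 5.53 CPM in P-Apex1KO and at 9.37, 4.88, 9.38, 3.94 and 8.26 CPM in WT, and its log2 fold change was 1.10 ± 0.23 (SE; edgeR adjusted p = 0.0180). *Fabp4*, a carrier of fatty acids in the cytosol that macrophages and capillary endothelium also make, was at 93.5, 98.7 and 66.6 CPM in P-Apex1KO and at 67.1, 48.7, 77.6, 48.2 and 57.7 CPM in WT, a log2 fold change of 0.67 ± 0.15 (SE; edgeR adjusted p = 0.0231). In both genes 1 P-Apex1KO male, replicate 3, lay within the WT range. *Plin1* was at 33.0, 30.4 and 12.0 CPM in P-Apex1KO and at 17.2, 7.64, 32.2, 7.26 and 16.9 CPM in WT, and did not pass (log2 fold change 1.14 ± 0.36 SE; edgeR adjusted p = 0.0793).

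*Retn*, which encodes resistin, was at 5.29, 3.84 and 2.47 CPM in P-Apex1KO and at 1.66, 1.20, 4.08, 1.28 and 3.13 CPM in WT, with a log2 fold change of 1.14 ± 0.31 (SE; edgeR adjusted p = 0.0463). *Lep* (0.86 ± 0.30 SE; edgeR adjusted p = 0.0940) and *Pparg* (0.44 ± 0.16 SE; edgeR adjusted p = 0.110) did not pass, although all 8 genes had an unadjusted p under 0.05. *Pparg*, the regulator, had the smallest log2 fold change of the 8.

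Sex separated the WT mice at 6-dpf. The 3 WT females were above the 2 WT males in 8 of 8 genes, beside 9.16% of all genes tested. *Cfd* ranged from 75.5 to 97.1 CPM in WT females and from 23.0 to 32.6 CPM in WT males. This order did not hold at the other times. WT females were above WT males in 0 of 8 genes at 3-dpf, 1 at 10-dpf and 4 at 14-dpf, where 1 WT mouse was female. At 3-dpf *Cfd* was reversed, at 56.1 to 88.2 CPM in WT females and 107 to 124 CPM in WT males.

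Within sex, the 2 P-Apex1KO males at 6-dpf were above both WT males in 8 of 8 genes (21.7% of all genes tested), and the P-Apex1KO female was above the 3 WT females in 7 of 8 (30.1%), *Pparg* being the exception. Across sexes, 0 of the 8 genes had every P-Apex1KO mouse above every WT mouse, beside 8.71% of all genes. Without the sex term 0 of 8 passed, and with all 30 libraries in a single model 0 of 8 passed. Over all genes those fits called 2687 of 19523 and 3077 of 20642, beside 2212 of 20260 in the fit as reported. With the replicate number as a block in place of sex 0 of 8 passed (edgeR adjusted p from 0.399 to 0.814), with log2 fold changes above 0 in 8 of 8. Calls over all genes fell to 677 of 21549 in that fit. The labels do not say whether same-numbered mice belong together. Leaving out WT replicate 4 left 1 call, WT replicate 2 left 2 and P-Apex1KO replicate 1 left 3. Over all genes these fits called 890, 921 and 995, beside 2212 with all mice. With library size alone as the scaling, which moved the median of all genes to 0.20, 8 of 8 passed.

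**Figure D2:**
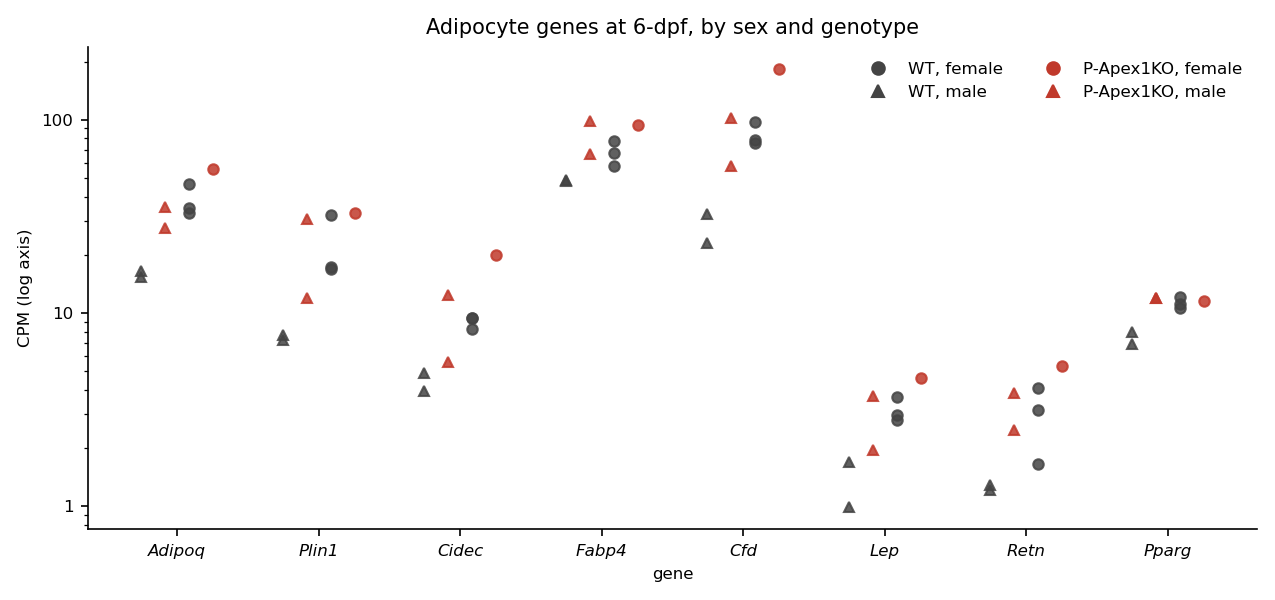
Level of the 8 genes at 6-dpf (CPM, log axis) by sex and genotype, each point 1 mouse, males as triangles and females as circles, WT in grey and P-Apex1KO in red. Both WT males lie below the 3 WT females in every gene, and within each sex the P-Apex1KO mice lie above the WT mice except for *Pparg* in females.

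At 10-dpf, when the cartilage of the callus is being replaced, 4 of the genes called at 6-dpf were called again, and *Plin1* took the place of *Retn*. *Adipoq*, *Plin1*, *Cidec*, *Fabp4* and *Cfd* were higher in P-Apex1KO callus, 5 of 8 beside 3.01% of 18910 genes called higher. *Adipoq* was at 44.9, 23.4 and 44.9 CPM in P-Apex1KO and at 15.6, 10.96, 13.4 and 13.5 CPM in WT. No P-Apex1KO mouse fell in the WT range, and the log2 fold change was 1.53 ± 0.24 (SE; edgeR adjusted p = 0.0207), a 2.88-fold difference.

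*Cidec* changed most, from 2.00, 1.74, 2.31 and 1.79 CPM in WT to 11.1, 4.98 and 11.6 CPM in P-Apex1KO. Its lowest P-Apex1KO value, in replicate 2, was above the highest WT value, and the log2 fold change was 2.25 ± 0.30 (SE; edgeR adjusted p = 0.0125), a 4.76-fold difference. *Plin1* rose from 6.79, 5.16, 5.78 and 7.17 CPM to 21.2, 12.5 and 23.0 CPM (log2 fold change 1.62 ± 0.22 SE; edgeR adjusted p = 0.0132). *Fabp4* rose less, from 31.3, 29.8, 29.5 and 38.997 CPM to 59.1, 46.5 and 59.0 CPM (log2 fold change 0.77 ± 0.13 SE; edgeR adjusted p = 0.0192).

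*Cfd* rose from 14.6, 8.36, 18.1 and 15.2 CPM in WT to 69.9, 30.9 and 62.0 CPM in P-Apex1KO (log2 fold change 1.96 ± 0.36 SE; edgeR adjusted p = 0.0316). P-Apex1KO replicate 2 was the lowest P-Apex1KO mouse in *Adipoq*, *Plin1*, *Cidec*, *Fabp4*, *Cfd*, *Retn* and *Pparg*, and it still exceeded every WT mouse in the first 6 of these. *Retn*, at 1.62, 1.27 and 2.81 CPM against 0.485, 0.274, 1.07 and 0.359 CPM, did not pass (log2 fold change 1.72 ± 0.45 SE; edgeR adjusted p = 0.0605). *Lep* rested on few reads, 2 to 18 counts in WT, and did not pass (1.69 ± 0.57 SE; edgeR adjusted p = 0.116).

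*Pparg* was at 14.7, 11.3 and 17.1 CPM in P-Apex1KO and at 13.6, 13.3, 8.85 and 12.7 CPM in WT, and the groups overlapped (log2 fold change 0.30 ± 0.18 SE; edgeR adjusted p = 0.354). In all, 6 of the 8 genes had every P-Apex1KO mouse above every WT mouse, beside 8.79% of all genes. In females alone this held for 8 of 8 (38.9% of all genes) and in males alone for 6 of 8 (19.9%). The count of calls was 5 without the sex term, but it was 0 without WT replicate 1, 0 without P-Apex1KO replicate 1, 2 without WT replicate 2 and 3 without P-Apex1KO replicate 3. Over all genes, the fits with a mouse left out called 113, 42, 185 and 638 in that order, beside 1221 with all mice.

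At 14-dpf none of the 8 genes passed, beside 11.3% of 20228 genes called in either direction, and at an unadjusted p under 0.05 the count was also 0. *Adipoq* was at 38.6, 29.97, 32.5 and 32.0 CPM in WT and at 19.1, 87.2 and 19.9 CPM in P-Apex1KO, with a log2 fold change of 0.16 ± 0.83 (SE; edgeR adjusted p = 0.925). P-Apex1KO replicate 2 was the highest of the 7 mice and the other 2 were the lowest. *Plin1* had the same order, at 25.4, 14.3, 16.4 and 20.9 CPM in WT and at 9.49, 36.7 and 10.6 CPM in P-Apex1KO.

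*Cidec* was at 2.92, 25.3 and 6.04 CPM in P-Apex1KO and *Pparg* at 13.6, 24.6 and 11.8 CPM, again with replicate 2 above every WT mouse. *Cfd* was higher in that mouse too, at 142 CPM, beside 35.7 and 56.3 CPM in the others and 18.1 to 38.3 CPM in WT (log2 fold change 1.37 ± 0.81 SE; edgeR adjusted p = 0.325). *Lep* did not share the pattern, at 0.962 CPM in replicate 2 and at 1.59 and 2.71 CPM in the others. Without replicate 2, *Adipoq* and *Plin1* were called lower in P-Apex1KO, by log2 fold changes of −0.96 (edgeR adjusted p = 0.00134) and −1.32 (edgeR adjusted p = 0.00494). That fit called 3773 of 19814 genes in either direction, beside 2289 of 20228 with all mice. Without the sex term, *Cfd* and *Retn* were called higher, in a fit that called 6849 of 18410 genes. DESeq2 called 0 of 8.

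**Figure D3:**
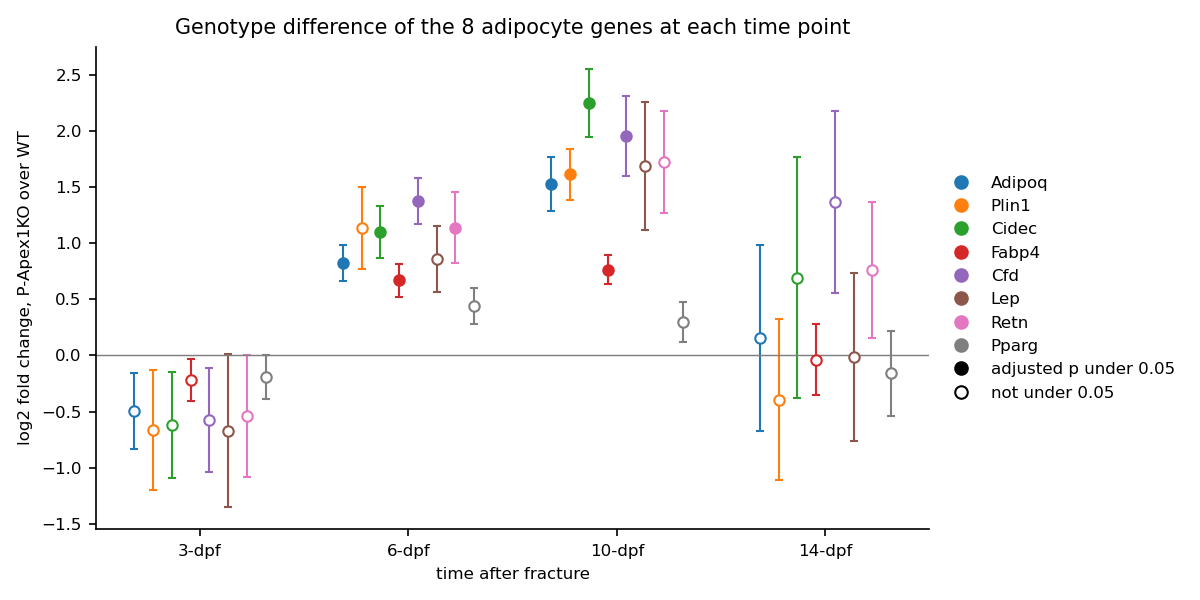
Log2 fold change of P-Apex1KO over WT for the 8 genes at each time point (edgeR with sex in the model), bars giving the standard error and filled points an adjusted p under 0.05. All 8 points lie below 0 at 3-dpf and above 0 at 6- and 10-dpf, with 5 filled at each of the last 2, and the bars are widest at 14-dpf.

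Fits over a pair of time points held a single sex term for both, and the model of all 30 libraries held a single sex term too. That term could not follow the order of the sexes in WT, which was not the same at each time. The genotype difference itself was compared between time points sequenced under 1 naming scheme. From 3- to 6-dpf it moved upward in 8 of 8 genes, by 0.58 (*Pparg*) to 1.70 (*Cfd*) on the log2 scale, but 0 of 8 passed beside 1.3% of all genes (edgeR adjusted p from 0.295 to 0.584), and 5 had an unadjusted p under 0.05. From 10- to 14-dpf it moved downward in 8 of 8 genes, by −0.47 (*Cfd*) to −1.80 (*Plin1*), and 0 of 8 passed beside 0.436% of all genes (edgeR adjusted p from 0.287 to 0.886). Without P-Apex1KO 14-dpf replicate 2 the latter change passed for *Adipoq* (−2.41; edgeR adjusted p = 0.00837), *Plin1* (−2.69; edgeR adjusted p = 0.00862) and *Cidec* (−2.94; edgeR adjusted p = 0.0280). Over all genes that fit called 197 of 19514 for this change, beside 86 of 19705 with all mice.

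WT callus was compared between time points as well. From 3- to 6-dpf log2 changes were below 0 for 8 of 8, and *Adipoq* passed at −0.91 ± 0.32 (SE; edgeR adjusted p = 0.0477), 1 of 8 beside 15.1% of all genes called lower. From 10- to 14-dpf they were above 0 for 8 of 8, and *Plin1* (1.65 ± 0.42 SE; edgeR adjusted p = 0.0272) and *Fabp4* (0.87 ± 0.18 SE; edgeR adjusted p = 0.00764) passed, 2 of 8 beside 6.19% called higher. With 1 mouse left out, 0 to 5 genes passed from 3- to 6-dpf, 5 without WT 3-dpf replicate 2, and 1 to 5 from 10- to 14-dpf, 5 without P-Apex1KO 14-dpf replicate 2. The fits that gave 5 called 5057 and 2760 genes in either direction, beside 6244 and 2190 with all mice. The mean of *Adipoq* in WT was 46.9 ± 7.7 CPM (SD, n = 4) at 3-dpf, 29.2 ± 13.2 (n = 5) at 6-dpf, 13.4 ± 1.9 (n = 4) at 10-dpf and 33.3 ± 3.7 (n = 4) at 14-dpf.

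Ordered by mean, *Adipoq* stood highest in WT at 3-dpf, then in P-Apex1KO at 14-, 6- and 10-dpf with 42.1 ± 39.1, 39.6 ± 14.6 and 37.8 ± 12.4 CPM (SD, n = 3 each). WT at 14-dpf, P-Apex1KO at 3-dpf with 33.1 ± 15.2 CPM (n = 4) and WT at 6-dpf came next, and neighbours in this order did not differ beyond their spread. WT at 10-dpf came last, and none of its 4 mice reached the lowest value of any other group except WT at 6-dpf, where 1 male had 15.3 CPM beside a WT 10-dpf maximum of 15.6 CPM. *Pparg* had another course, with WT means of 11.8 ± 0.3, 9.72 ± 2.21, 12.1 ± 2.2 and 18.9 ± 1.7 CPM at 3-, 6-, 10- and 14-dpf. Sample names follow another scheme from 10-dpf on, so time and naming scheme cannot be told apart between 6- and 10-dpf.

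Correlations between genes over the 30 libraries are not given. The log2 values behind them were not divided by each library's own size.

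Other genes of lipid storage moved with the 8 genes in part. To set beside the counts of every list below, all genes tested gave 1075 higher and 1137 lower of 20260 at 6-dpf. They gave 570 higher and 651 lower of 18910 at 10-dpf, and 865 higher and 1424 lower of 20228 at 14-dpf. Of 20 further lipid droplet and lipolysis genes, 6 were higher and 1 lower at 6-dpf, with a median log2 fold change of 0.65 beside 0.01 over all genes. *Plin4* (1.36 ± 0.27 SE; edgeR adjusted p = 0.0144) led, followed by *Fitm1* (1.30), a droplet-forming protein best known from muscle, *Pnpla2* (0.85), the adipose triglyceride lipase, and *Lpl* (0.76), lipoprotein lipase. *Hilpda*, an inhibitor of that lipase *Pnpla2*, was lower (−0.75). With the replicate block 0 of the 20 were called higher, and without WT replicate 2 or WT replicate 4 the count was 2.

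At 10-dpf 4 of 19 tested were higher and 0 lower, with a median of 0.68. They were *Plin4* (1.56), *G0s2* (0.99), another inhibitor of *Pnpla2*, *Cd36* (0.92), the fatty acid transporter, and *Lipe* (0.68). The count was 0 without WT replicate 1 and 0 without P-Apex1KO replicate 1. At 14-dpf 0 were higher and 2 were lower, *Gpihbp1* (−1.47), which anchors lipoprotein lipase on capillaries, and *Hilpda* (−1.08).

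Of 20 genes of fatty acid and triglyceride synthesis, 4 were higher and 2 lower at 6-dpf, and 5 were higher and 0 lower at 10-dpf. *Gpd1*, which makes glycerol phosphate, went from 35.4 to 83.1 CPM at 6-dpf (1.31) and from 21.5 to 64.7 CPM at 10-dpf (1.59). *Thrsp* (1.29 and 1.85), a lipogenic nuclear protein, was higher at both times. *Mlxipl* (1.41), the carbohydrate-responsive factor ChREBP, and *Lpin1* (0.80) were higher at 6-dpf. *Scd2* (−1.31), a desaturase with broad expression, and *Acaca* (−0.41) were lower at 6-dpf. *Scd1* (1.04), the main fat cell desaturase, *Dgat2* (0.79) and *Gpam* (0.57) were higher at 10-dpf. With the replicate block 1 was called higher at 6-dpf. Without WT replicate 1, WT replicate 2 or P-Apex1KO replicate 1, 0 were at 10-dpf.

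Of 16 transcription factors of adipogenesis 4 were higher at 6-dpf, *Cebpb* (1.00), *Cebpd* (0.61), *Cebpa* (0.55) and *Stat5b* (0.54), and none was lower, with 1 called under the replicate block. The 6-dpf count was 1 without WT replicate 2 or P-Apex1KO replicate 1 or 2, and 2 without WT replicate 4 or 5. At 10-dpf *Stat5b* (0.45), *Cebpa* (0.42) and *Stat5a* (0.34) were higher and *Zfp467* (−0.56) was lower. The count of higher genes there was 0 without WT replicate 1 or 2 or P-Apex1KO replicate 1, and 1 without WT replicate 3 or P-Apex1KO replicate 2 or 3. At 14-dpf *Klf5* (0.79) was higher, and *Ppargc1b* (−1.27), *Zfp423* (−0.94) and *Zfp467* (−0.90) were lower. *Cebpa* is the C/EBP factor that works with *Pparg* in the mature fat cell.

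Brown and beige fat genes gave 2 of 10 higher at 6-dpf, *Cpt1b* (1.45), which is also the muscle form of its enzyme, and *Adrb3* (1.30), the adrenergic receptor of fat cells, from 0.532 to 0.895 CPM. The count was 1 with the replicate block and 0 to 2 with 1 mouse left out, 0 without WT replicate 2, 3 or 4 or P-Apex1KO replicate 1 and 1 without WT replicate 1 or 5 or P-Apex1KO replicate 2. None of the 10 passed at 10- or 14-dpf.

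Other secreted and surface proteins enriched in fat split. At 6-dpf *Sncg* (0.78) and *Hp* (0.38) were higher, and *Rbp4* (−1.96), a retinol carrier, *Mest* (−1.27) and *Apln* (−0.97) were lower, of 20 tested. With the replicate block 0 were higher and 1 lower. The count of higher genes was 0 without WT replicate 2 or P-Apex1KO replicate 1 or 2, and 1 without WT replicate 4 or 5 or P-Apex1KO replicate 3. At 10-dpf *Hp* (1.08), *Angptl4* (0.39) and *Agt* (0.36) were higher, and *Apln* (−0.56) and *Lepr* (−0.42), the leptin receptor, were lower. At 14-dpf *Lcn2* (1.34), which neutrophils also carry, was higher and *Lepr* (−1.19) was lower.

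Of 15 preadipocyte and fibro-adipogenic progenitor genes, 4 were higher at 6-dpf, *Ly6a* (1.06), *Dpp4* (0.91), *Dpt* (0.90) and *Icam1* (0.54), and *Dlk1* (−1.29), which blocks fat cell formation, and *Clec11a* (−0.79) were lower. The count of higher genes was 2 with the replicate block, 1 without WT replicate 2, 2 without WT replicate 4 and 2 without P-Apex1KO replicate 1. At 10-dpf *Icam1* (0.57) was higher, and *Dlk1* (−1.23), *Fap* (−0.69) and *Pdgfra* (−0.61) were lower. *Pdgfra* (−1.47) and *Fap* (−1.10) were lower at 14-dpf.

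Of 15 genes of the marrow stroma that includes the adipogenic lineage, *Il7* (0.95), *Gas6* (0.65), *Vcam1* (0.49) and *Esm1* (0.43) were higher at 6-dpf, and *H19* (−1.26) and *Foxc1* (−0.83) were lower. With the replicate block 1 was higher and 0 lower. Without WT replicate 2, 3 or 4 or any 1 of the P-Apex1KO mice, 1 was higher. *Gas6* (0.74) and *Vcam1* (0.65) were higher at 10-dpf and *Lepr* (−0.42) was lower. At 14-dpf none was higher, and *Foxc1* (−1.46), *Grem1* (−1.22), *Lepr* (−1.19), *Ebf3* (−0.86) and *Tmem176a* (−0.74) were lower.

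**Figure D4:**
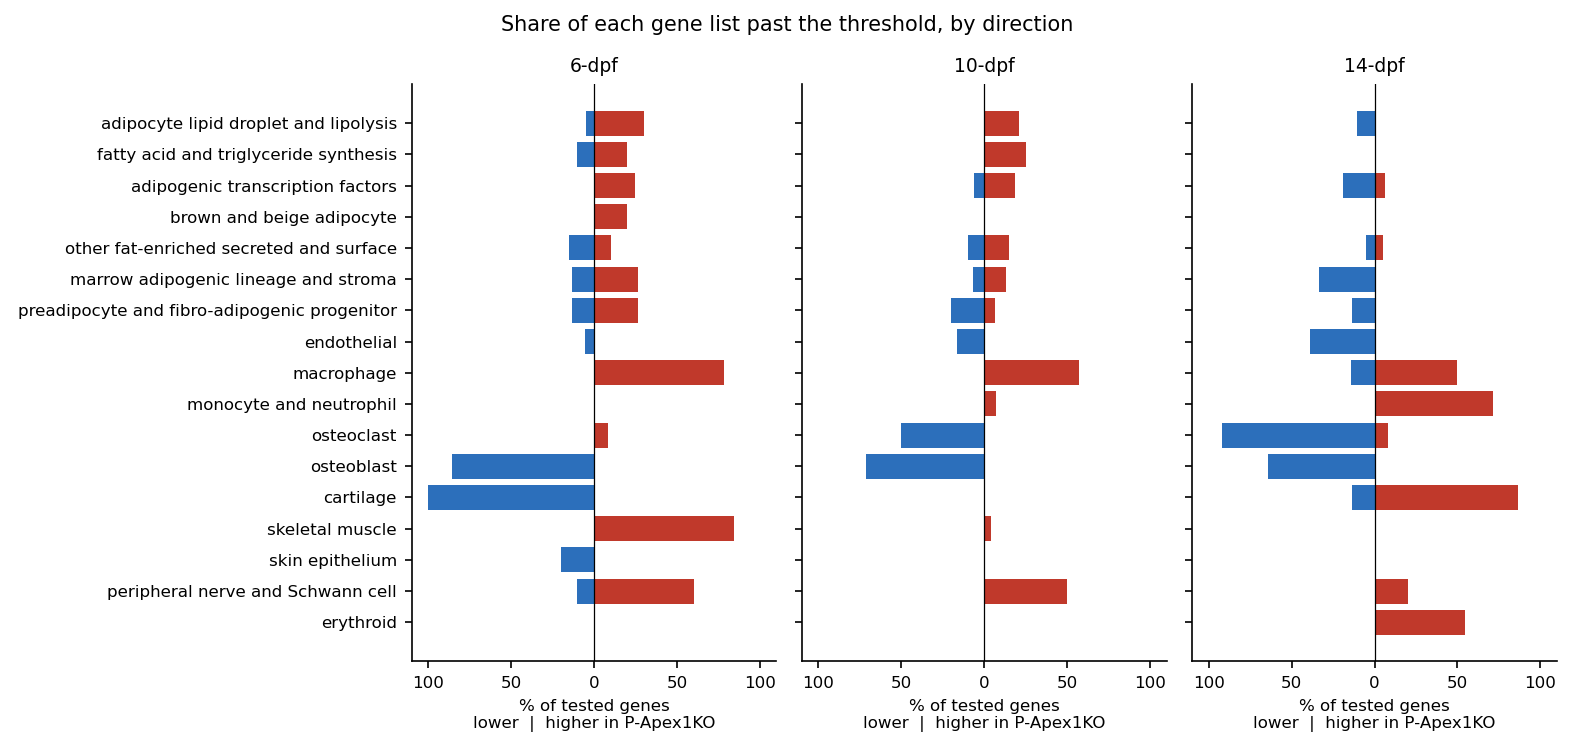
Share of the tested genes of each list that passed the test (edgeR adjusted p under 0.05), higher in P-Apex1KO to the right in red and lower to the left in blue, at 6-, 10- and 14-dpf. The lipid droplet, lipid synthesis and transcription factor lists lean to the right at 6- and 10-dpf, where the muscle list (22 of 26 at 6-dpf) and the macrophage list (11 of 14 at 6-dpf) do as well, and osteoblast genes lean to the left at all 3.

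Genes of some other tissues around the break shared the direction of the 8 genes at 6- and 10-dpf. They did not at 3-dpf, where the 8 genes lay below 0. There 26 of 26 muscle genes (median log2 fold change 0.90) and 12 of 14 macrophage genes (median 0.28) were above 0, and 0 passed. At 6-dpf 22 of 26 skeletal muscle genes were higher and none lower, with a median log2 fold change of 1.34, and their summed level was 16890 to 36327 CPM in P-Apex1KO and 7577 to 13711 CPM in WT. *Ckm*, muscle creatine kinase, was at 1352 ± 631 CPM (SD, n = 3) in P-Apex1KO and at 454 ± 124 CPM (n = 5) in WT. At 10-dpf 1 of 26 passed, *Des* (1.55), although the median was 1.40 and 26 of 26 were above 0. At 14-dpf 0 passed and 25 were above 0, with a median of 0.87. With the replicate block 4 of 26 were called at 6-dpf and 19 at 10-dpf. Without WT replicate 2 the 6-dpf count was 4, without WT replicate 4 it was 5, and without P-Apex1KO replicate 2 the 10-dpf count was 21. The part of muscle in the fat cell result was not tested.

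In P-Apex1KO replicates 1, 2 and 3 at 6-dpf the summed muscle level was 16890, 36327 and 25102 CPM, beside *Adipoq* at 55.7, 35.4 and 27.5 CPM. At 14-dpf it was 12966, 33140 and 39611 CPM, beside *Adipoq* at 19.1, 87.2 and 19.9 CPM. The summed muscle level at 10-dpf was 9480.5 to 28212 CPM in P-Apex1KO and 4711 to 11031 CPM in WT. *Adipoq* was at 23.4 to 44.9 CPM and at 10.96 to 15.6 CPM in the same groups.

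Nerve and Schwann cell genes gave 6 higher and 1 lower of 10 at 6-dpf and 5 higher at 10-dpf. Macrophage genes, a cell type that also expresses *Fabp4* and *Pparg*, gave 11 higher of 14 at 6-dpf and 8 at 10-dpf, and their summed level was 1457 to 1695 CPM against 833 to 1069 CPM at 6-dpf. *Adgre1*, the macrophage marker F4/80, was at 111 ± 12 CPM (SD, n = 3) in P-Apex1KO and at 62.4 ± 5.0 CPM (n = 5) in WT at 6-dpf. At 14-dpf 7 macrophage genes were higher and 2 lower while none of the 8 fat cell genes passed. With the replicate block 6 macrophage and 3 nerve genes were higher at 6-dpf, and without P-Apex1KO replicate 1 none of either was at 10-dpf. The part of these cells in the result was not tested.

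Capillary endothelium also makes *Fabp4*, and its part in the result was not tested. Of 18 endothelial genes 18 were above 0 at 3-dpf, and 0 passed. None of 18 was higher at 6- or 10-dpf (0 by DESeq2 as well) and 1 and 3 were lower, *Erg* (−0.79) at 6-dpf and *Plvap* (−0.58), *Cdh5* (−0.55) and *Flt1* (−0.47) at 10-dpf. *Pecam1* was at 173 ± 38 CPM in P-Apex1KO (SD, n = 3) and at 191 ± 27 CPM in WT (n = 5) at 6-dpf. Of 13 skin genes 5 passed the low-count filter, and 1 was lower at 6-dpf, *Dsp* (−1.17).

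At 6-dpf 15 of 15 cartilage genes, led by *Matn1* (−5.03) and *Col2a1* (−4.68), and 12 of 14 osteoblast genes, led by *Pth1r* (−2.14), were lower, and of 12 osteoclast genes 1 was higher, *Tnfrsf11a* (0.50), and 0 lower. At 10-dpf 10 of 14 osteoblast and 6 of 12 osteoclast genes were lower, among them *Dmp1* (−1.72) and *Ocstamp* (−2.35), and none of 15 cartilage genes passed. Without P-Apex1KO replicate 1 both counts were 0, and without WT replicate 1 both were 1. Without WT replicate 2 they were 3 and 1, and without P-Apex1KO replicate 3 they were 4 and 2. Without WT replicate 3 the osteoclast count was 10. At 14-dpf 9 osteoblast and 11 osteoclast genes were lower, with *Dmp1* at −2.38 and *Oscar* at −2.79, and 13 of 15 cartilage genes were higher, led by *Cnmd* (5.12). The cartilage count was 2 without the sex term, 3 with all 30 samples in one model and 0 with the replicate block, and the summed level was 8422 to 12338 CPM in P-Apex1KO and 5360 to 12851 CPM in WT. The part of the skeletal tissue in the fat cell result was not tested.

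Of 14 monocyte and neutrophil genes 0 passed at 6-dpf, *Ccr2* (0.97) was higher at 10-dpf and 10 were higher at 14-dpf, led by *S100a9* (1.48). The 10-dpf count was 13 by DESeq2 and 13 without P-Apex1KO replicate 3, and 0 without P-Apex1KO replicate 1 or WT replicate 1, 2 or 4. Of 11 erythroid genes 0 passed at 6- and 10-dpf and 6 were higher at 14-dpf, among them *Epb42* (1.32). With all 30 samples in one model 0 were at 14-dpf, and with the replicate block 4 were at 10-dpf.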

How the data were processed

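Stranded total RNA libraries, depleted of rRNA and beta globin transcripts, came from 30 calluses. Per the submitters' processing notes and the methods, the authors aligned reads to mm39 with STAR 2.7.0d and used featureCounts on the reverse strand to count reads that mapped to 1 place, per gene of Ensembl v104. The deposited values are raw counts, without normalization. The members and gene lists were chosen with earlier results of these data known.

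GENCODE M39 (GRCm39, which is mm39) gave positions, symbols and promoter stretches and held 54749 of the 55416 IDs, including all 8 genes. Sex labels matched the sex-linked transcripts in 30 of 30 libraries. No 2 libraries of a group agreed within sampling noise (chi-square per degree of freedom from 5.65 to 127 over 43 pairs). Depth ran from 18334389 to 43111491 counts. The 8 genes had at least 113 counts per library except *Cidec* (37), *Lep* (2) and *Retn* (6), where counting error adds to the spread between mice.

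Each time point was fitted with edgeR 4.0.16 (R 4.3.3; filterByExpr, TMM, robust quasi-likelihood) with sex as covariate, as in the study's methods, and p-values were adjusted by Benjamini-Hochberg over all genes tested, the threshold being 0.05. The SE is the size of the log2 fold change over the square root of F. Changes of the genotype difference and of WT over time were fitted on 3- with 6-dpf and on 10- with 14-dpf, each with a single sex term. No test set 6- against 10-dpf, since the sample names follow another scheme from 10-dpf on. CPM values used TMM factors over 30 libraries. The fits were checked on simulated data.

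Named were the 8 genes in each comparison and up to 4 genes per list and direction with the largest change past the threshold. At 14-dpf *Lepr* stands in 2 lists, and *Tmem176a* of the marrow list was named after its value was seen. Some genes and sequences that the rule would name are not reported here. The labels do not say whether same-numbered WT and P-Apex1KO mice belong together, so the replicate block is an alternative only. At 6-dpf numbers 1 and 2 also share sex between the genotypes.

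Alternatives were the DESeq2 1.42.0 Wald test, no sex term, other scaling, other filters, all libraries in a single model, a replicate block, and each mouse left out.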

Additional observations from a re-analysis of the deposited data

Results flagged for a closer look

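*Lep* was at 0.374 CPM in P-Apex1KO replicate 2 at 3-dpf, far below the 3.88, 4.36 and 3.89 CPM of the other 3 mice of its group (Dixon's test for 1 distant sample). The count was 12 reads in that library and 110 to 154 in the others. The same mouse was the lowest of the 8 at 3-dpf for each of the 8 genes. Of 40 combinations of a gene and a group of 4 or 5 mice, 1 was set apart in this way, and chance sets apart about 1 in 20.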

How the results depend on the processing

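At 6-dpf, 5 of 8 genes passed. The count was 0 without the sex term, 0 with all 30 samples in one model, 0 with the replicate block in place of sex, 8 with library size alone and 7 with DESeq2, and 1 to 6 with 1 mouse left out. At 10-dpf it ran from 4 to 7 over the alternatives with all mice (7 with the replicate block) and from 0 to 7 with 1 mouse left out. At both times every gene tested kept a log2 fold change above 0 in each alternative. At 14-dpf 2 passed without the sex term, *Cfd* at 1.55 (edgeR adjusted p = 0.0487) and *Retn* at 1.14 (edgeR adjusted p = 0.0476), and 0 to 2 with 1 mouse left out. At 3-dpf the count was 0 throughout. For the WT fall from 3- to 6-dpf, 1 in the model as reported, it was 2 with DESeq2, 4 with library size alone, and 0 without the sex term, with DESeq2 size factors, without a filter or with all 30 samples in one model, and 0 to 5 with 1 mouse left out. For the WT rise from 10- to 14-dpf, 2 as reported, it was 5 with DESeq2, 5 with all 30 samples, 1 without a filter, and 1 to 5 with 1 mouse left out. For the change of the genotype difference from 10- to 14-dpf it was 0 to 3 with 1 mouse left out. The block could not be fitted for the WT changes. The cause of these differences was not tested.

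Direction turned at 14-dpf for *Adipoq* with the block (−0.061), *Plin1* without the sex term (0.021), *Fabp4* without the sex term (0.14), with library size alone (0.24), with all 30 samples (0.068) and with the block (0.16), *Lep* in the same order (1.08, 0.24, 0.93 and 1.43), and *Pparg* with library size alone (0.12). With 1 mouse left out, 14-dpf values ran from −0.96 to 0.52 for *Adipoq*, −0.68 to 1.17 for *Cidec*, −0.33 to 0.12 for *Fabp4*, −0.47 to 0.26 for *Lep* and −0.56 to 0.030 for *Pparg*. Changes from 10- to 14-dpf ran from −1.21 to 0.0075 for *Cfd*, −1.56 to 1.82 for *Lep* and −1.34 to 0.13 for *Retn*, and the WT change of *Lep* from −0.066 to 1.90. Library size alone moved the median of all genes by 0.20 at 6-dpf and 0.31 at 14-dpf. Calls over all genes at 6-dpf, 2212 as reported, were 3594 with library size alone and 677 with the block. They were 2687 without the sex term and 3077 with all 30 samples. At 10-dpf they went from 1221 to 2149 with DESeq2 and 750 without the sex term. At 14-dpf they went from 2289 to 6849 without the sex term and 6188 with all 30 samples, and at 3-dpf from 0 to 68 with DESeq2. Leaving out the WT female at 14-dpf allowed no estimate. Depth limits *Lep* most, with 2 counts in its lowest library.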
